A study of Arabidopsis thaliana with 12 samples.

Results

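Cuticular wax and lipid transfer genes were followed as a set of 10 named loci: CER1, CER2, CER3, CER4, KCS1, KCS6, MAH1, MYB96, LTP3 and LTP4. The loci were picked by name, with earlier results of these data known, and 7 of the 10 have a row in the deposited table of 20233 genes. All 7 were tested, having an average above the floor of 1 FPKM. CER4, which makes the primary alcohols of wax, MAH1, a midchain alkane hydroxylase, and LTP4, a lipid transfer protein, were not analysed here.

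The libraries come from Arabidopsis thaliana seedlings aged 2 to 3 weeks, infiltrated under vacuum. RNA was taken 6 h after that, and the labels call the tissue leaf. Of the 4 groups of 3 libraries, the first received 10 µM valinomycin together with the bacterium Pseudomonas syringae pv. tomato DC3000. The second received 10 µM valinomycin alone, the third DC3000 alone, and the fourth a mock treatment. Valinomycin is an antibiotic that carries potassium ions through membranes, and DC3000 is a bacterial pathogen of Arabidopsis. The labels name no ecotype, mutation, bacterial dose or separate plant for a library, so each p-value reflects the spread between these libraries, which may be technical. Values are in FPKM, fragments scaled by transcript length and library size, a unit inferred from the table.

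The cuticle is the waxy film that epidermal cells lay down over the shoot. Its waxes start as fatty acids that are lengthened in the endoplasmic reticulum by a fatty acid elongase, whose 3-ketoacyl-CoA synthase (KCS) subunit sets the chain length. The very long chains are then turned into aldehydes, alkanes, secondary alcohols and ketones in one branch, and into primary alcohols and esters in the other, before export to the surface. Lipid transfer proteins are small secreted proteins that bind lipids in the cell wall, and several of them take part in defence.

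In short, the genes did not move as a block. CER1 and LTP3 averaged above mock with DC3000 alone and below mock with both treatments. KCS1 was below mock in every treated group, MYB96 was above mock in both groups that received valinomycin, and KCS6 was not called against mock in any treated group.

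Library totals ran from 1057472 to 1350272 FPKM, and the depth is unknown, since low values multiplied by transcript length showed no clear step of 1 fragment. Mock replicate 3 had the lowest scaling factor by median of ratios, 0.738, against 0.92 to 1.14 in the other 11 libraries. The median log2 change of all 18048 tested genes against mock was 0.17 with both treatments, 0.27 with valinomycin and 0.18 with DC3000. Rescaling to those factors brings these medians to 0.01, 0.01 and 0, so a change near them is not a change relative to other genes. Before rescaling, 61.7%, 73.6% and 64.8% of called genes were higher in the same order of comparisons, and after it 51.2%, 49.6% and 48.7%. The clock gene LHY, a morning transcription factor, stood at 0.88 to 17.3 FPKM in the 9 treated libraries and at 206 to 303 FPKM in mock, and its part in the comparisons with mock was not tested. Wax genes are active in the epidermis, and in whole tissue fewer cells of a type and less RNA per cell cannot be told apart.

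To show what lies upstream of the members that moved most and least, the 250 bases before the annotated gene start are printed for CER1 (chr1:418166-418415, plus strand), LTP3 (chr5:23928704-23928953, plus strand), KCS1 (chr1:59216-59465, minus strand) and KCS6 (chr1:25715025-25715274, minus strand). They were read from RefSeq's TAIR10.1 assembly, and capitals mark matches, on either strand, to TAACTA, a core bound by MYB96 and related factors, or ACGTG, the core of the abscisic acid response element.
CER1: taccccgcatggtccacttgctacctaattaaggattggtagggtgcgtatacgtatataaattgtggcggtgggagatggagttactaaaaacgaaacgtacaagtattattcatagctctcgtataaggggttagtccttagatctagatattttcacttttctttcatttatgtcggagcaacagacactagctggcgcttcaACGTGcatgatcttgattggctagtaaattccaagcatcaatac
LTP3: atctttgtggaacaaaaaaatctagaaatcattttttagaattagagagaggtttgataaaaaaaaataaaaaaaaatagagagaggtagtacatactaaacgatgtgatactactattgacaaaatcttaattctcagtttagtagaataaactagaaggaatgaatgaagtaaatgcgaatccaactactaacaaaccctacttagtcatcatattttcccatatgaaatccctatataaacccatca
KCS1: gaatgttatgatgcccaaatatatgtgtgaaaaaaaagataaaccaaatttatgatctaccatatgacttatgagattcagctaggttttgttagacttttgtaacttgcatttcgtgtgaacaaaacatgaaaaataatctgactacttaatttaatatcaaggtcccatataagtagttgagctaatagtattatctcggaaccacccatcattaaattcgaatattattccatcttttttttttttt
KCS6: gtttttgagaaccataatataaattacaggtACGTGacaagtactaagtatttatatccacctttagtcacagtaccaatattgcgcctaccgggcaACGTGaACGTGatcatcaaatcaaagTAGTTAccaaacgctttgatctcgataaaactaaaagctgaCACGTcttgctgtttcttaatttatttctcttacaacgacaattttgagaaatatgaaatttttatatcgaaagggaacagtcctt
The KCS6 window holds 4 matches to ACGTG and 1 to TAACTA, and the CER1 window holds 1 match to ACGTG. The LTP3 and KCS1 windows hold neither string. Over the 7 members, ACGTG was found in 3 windows and TAACTA in 2, the third holder of ACGTG and the other holder of TAACTA being CER2. GCCGCC, the GCC box bound by ethylene response factors such as DEWAX, was found in 0 of the 7. Among all 37897 windows of the same length, 20.8% hold ACGTG, 19.7% hold TAACTA and 1.95% hold GCCGCC. No match in these windows shares a base with a match to another string. A match is a string in a window, not a measured binding site.

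CER1 (AT1G02205; chromosome 1, 418416 to 422579, plus strand, 8 exons in the TAIR10.1 annotation) encodes an enzyme of the complex that makes very long chain alkanes. Its level was 4.20, 3.73 and 4.37 FPKM with both treatments, 12.35, 12.05 and 18.7 FPKM with valinomycin, 31.05, 36.05 and 21.7 FPKM with DC3000, and 14.5, 12.6 and 8.06 FPKM in mock. The libraries with DC3000 alone all lay above every other library, and those with both treatments all lay below every other library. CER1 therefore averaged 29.6 ± 7.26 FPKM with DC3000, against 11.7 ± 3.31 FPKM in mock (SD, n = 3 each), a log2 fold change of 1.27 ± 0.23 (SE, limma adjusted p = 0.000347). With both treatments it averaged 4.10 ± 0.331 FPKM (SD, n = 3) and fell by 1.28 ± 0.23 on the log2 scale against mock (limma adjusted p = 0.000218). Valinomycin alone left it at 14.4 ± 3.76 FPKM, not called against mock, with a 95% interval of the log2 difference of -0.20 to 0.77.

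Against DC3000 alone, CER1 with both treatments fell by 2.56 ± 0.23 on the log2 scale (limma adjusted p = 5.77e-06). Against valinomycin alone, it fell by 1.57 ± 0.23 (limma adjusted p = 0.000461). Valinomycin alone stood at a log2 difference of -0.99 ± 0.23 from DC3000 alone (limma adjusted p = 0.00435). Each of these CER1 calls was kept in all 18 alternative settings.

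CER3 (AT5G57800; chromosome 5, 23420184 to 23424117, plus strand, 11 exons), the partner of CER1 in alkane synthesis, rose with DC3000 alone. Its levels were 22.8, 21.3 and 23.75 FPKM with both treatments, 19.5, 20.05 and 20.4 FPKM with valinomycin, 33.85, 35.4 and 25.1 FPKM with DC3000, and 20.8, 20.1 and 14.2 FPKM in mock. All 3 DC3000 libraries lay above the other 9, while the valinomycin libraries lay within the range of mock and those with both treatments lay just above it. The log2 fold change with DC3000 was 0.75 ± 0.16 (limma adjusted p = 0.00176), against 0.30 ± 0.16 with both treatments, which was not called (limma adjusted p = 0.126). In both treatments against DC3000 alone, the CER3 difference was -0.45 ± 0.16 and was not called (limma adjusted p = 0.0567), although the 2 groups of libraries did not overlap. That difference was called in 5 of 18 alternatives, among them rescaling, where its adjusted p was 0.0107. Valinomycin alone differed from DC3000 alone by -0.62 ± 0.16 (limma adjusted p = 0.0117), a CER3 call lost without DC3000 replicate 1 or 2 (limma adjusted p = 0.0557 and 0.062).

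CER2 (AT4G24510; chromosome 4, 12660687 to 12662656, plus strand, 2 exons) encodes an acyltransferase-like protein that lets the elongase make the longest chains. It stood at 10.6, 11.2 and 10.5 FPKM with both treatments, 15.0, 22.3 and 17.1 FPKM with valinomycin, 15.0, 17.3 and 10.6 FPKM with DC3000, and 22.7, 21.9 and 15.6 FPKM in mock. The 3 libraries with both treatments lay below all mock and all valinomycin libraries, and the DC3000 libraries overlapped every other group. With both treatments CER2 fell by 0.82 ± 0.20 on the log2 scale against mock (limma adjusted p = 0.00226) and by 0.68 ± 0.20 against valinomycin alone (limma adjusted p = 0.0307). The second of these was lost when any 1 of valinomycin replicate 2 and the 3 libraries with both treatments was left out, with limma adjusted p of 0.0643 to 0.129. With DC3000 alone the CER2 difference from mock was -0.47 ± 0.20 and was not called (limma adjusted p = 0.0616), but after rescaling it was -0.68 (limma adjusted p = 0.0016). With valinomycin alone it was -0.14 ± 0.20 and not called (limma adjusted p = 0.569), but after rescaling it was -0.44 (limma adjusted p = 0.0199). Exons of 2 genes on the opposite strand, AT4G07275 and AT4G24520, overlap CER2, and the use of read strand is not given in the sources used here, so reads of these genes and of CER2 may not be told apart.

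KCS1 (AT1G01120; chromosome 1, 57164 to 59215, minus strand, 1 exon), a condensing enzyme of broad chain length range, was lower in every treated group than in mock. Its levels were 19.7, 21.0 and 19.55 FPKM with both treatments, 43.3, 47.85 and 42.1 FPKM with valinomycin, 19.7, 24.6 and 20.8 FPKM with DC3000, and 76.9, 71.35 and 61.6 FPKM in mock. Mock lay above all 9 treated libraries, and the valinomycin libraries lay between mock and the 6 libraries that received DC3000. The log2 fold change against mock was -1.75 ± 0.13 with both treatments (limma adjusted p = 7.64e-08), -0.64 ± 0.13 with valinomycin (limma adjusted p = 0.00115) and -1.64 ± 0.13 with DC3000 (limma adjusted p = 1.86e-07). Both treatments and DC3000 alone overlapped, and their difference was -0.10 on the log2 scale with a 95% interval of -0.39 to 0.18. Against valinomycin alone, KCS1 with both treatments fell by 1.11 ± 0.13 (limma adjusted p = 9.12e-05), and valinomycin alone stood 1.00 ± 0.13 above DC3000 alone (limma adjusted p = 5.29e-05). The 5 KCS1 calls held in all 18 alternatives.

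KCS6 (AT1G68530; chromosome 1, 25712414 to 25715024, minus strand, 2 exons), also called CER6 and the main condensing enzyme of cuticular wax, had the highest levels of the 7 genes in every group. It stood at 73.1, 75.5 and 69.0 FPKM with both treatments, 90.3, 107 and 102 FPKM with valinomycin, 107, 118 and 83.0 FPKM with DC3000, and 90.15, 83.2 and 69.7 FPKM in mock. The 3 libraries with both treatments lay below all libraries of either single treatment but overlapped mock, and the lowest valinomycin library lay just above the highest mock library. No comparison of KCS6 with mock was called, the log2 changes being -0.15 with both treatments, 0.30 with valinomycin and 0.33 with DC3000 (limma adjusted p = 0.403, 0.111 and 0.0814). After rescaling these values became -0.34, -0.02 and 0.11, and the first was then called (limma adjusted p = 0.0129). Against DC3000 alone, KCS6 with both treatments fell by 0.48 ± 0.15 (limma adjusted p = 0.0285), a call lost without DC3000 replicate 1 or 2 or any 1 library with both treatments, with limma adjusted p of 0.0622 to 0.134, and with nuclear genes scaled to 1 total (-0.41, limma adjusted p = 0.0832). The transcript of KCS5 is 81.3% identical to that of KCS6 over 1475 bases, and whether any reads match both was not tested.

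The order of levels among the 7 genes in mock was KCS6 at 81.0 ± 10.4 FPKM, KCS1 at 69.9 ± 7.72, CER2 at 20.0 ± 3.89, CER3 at 18.4 ± 3.63, MYB96 at 16.3 ± 3.95, CER1 at 11.7 ± 3.31 and LTP3 at 7.66 ± 5.19 (SD, n = 3 each). KCS6 and KCS1 overlapped each other in mock, and from CER2 down each gene overlapped its neighbours. With DC3000 alone the order was KCS6 at 103 ± 18.1 FPKM, CER3 at 31.4 ± 5.52, CER1 at 29.6 ± 7.26, LTP3 at 22.5 ± 9.85, KCS1 at 21.7 ± 2.56, MYB96 at 17.7 ± 5.01 and CER2 at 14.3 ± 3.39. The range of LTP3 there, 11.2 to 29.4 FPKM, took in all of KCS1 and reached into those of CER1, CER3, MYB96 and CER2. This order rests on the inferred unit, FPKM, which is scaled by transcript length.

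**Figure D1:**
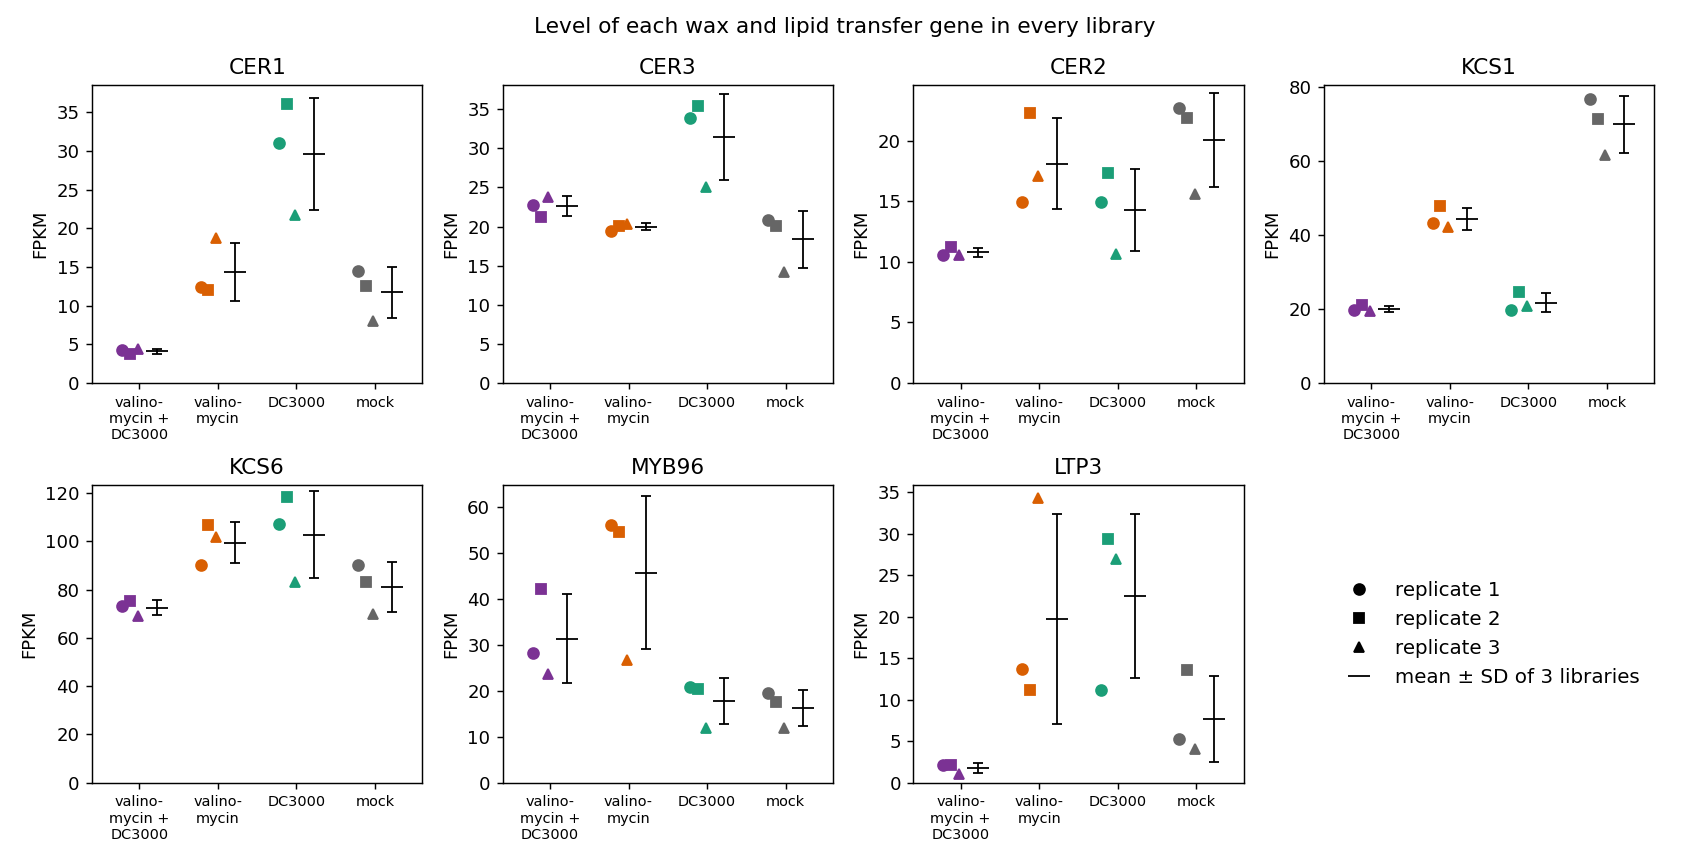
FPKM (vertical axis, starting at 0, scaled for each gene) of the 7 measured genes in every library of the 4 groups; symbols mark replicates and bars the mean ± SD of 3 libraries. CER1 is at 3.73 to 4.37 FPKM in all libraries with both treatments and at 21.7 to 36.1 FPKM with DC3000 alone, and KCS1 is highest in mock, at 61.6 to 76.9 FPKM.

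MYB96 (AT5G62470; chromosome 5, 25078991 to 25081141, minus strand, 3 exons) encodes a transcription factor that turns on wax synthesis genes under drought through abscisic acid. It stood at 28.1, 42.2 and 23.7 FPKM with both treatments, 56.0, 54.55 and 26.6 FPKM with valinomycin, 20.7, 20.4 and 11.9 FPKM with DC3000, and 19.5, 17.6 and 11.9 FPKM in mock. Every library that received valinomycin lay above every library that did not, and replicate 3 was the lowest in each group. Valinomycin alone raised MYB96 by 1.39 ± 0.30 on the log2 scale (limma adjusted p = 0.00147), and both treatments raised it by 0.89 ± 0.30 against mock (limma adjusted p = 0.0186). The second call was lost without mock replicate 3 (0.69, limma adjusted p = 0.101) or without replicate 2 of both treatments (0.66, limma adjusted p = 0.089). Relative to DC3000 alone, MYB96 differed by 0.79 ± 0.30 with both treatments and was not called (limma adjusted p = 0.0624). That difference was called in 7 of 18 alternatives, among them a fit with replicate number as a block (limma adjusted p = 0.00416). With valinomycin alone MYB96 differed from DC3000 alone by 1.29 ± 0.30 (limma adjusted p = 0.0047). DC3000 alone left it at 17.7 ± 5.01 FPKM, against 16.3 ± 3.95 FPKM in mock, with a 95% interval of the log2 difference of -0.54 to 0.74.

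LTP3 (AT5G59320; chromosome 5, 23928954 to 23929816, plus strand, 2 exons) encodes a secreted lipid transfer protein known as a target of MYB96 and, when overexpressed, as a factor that makes Arabidopsis more susceptible to DC3000. Its levels were 2.15, 2.08 and 1.05 FPKM with both treatments, 13.7, 11.1 and 34.2 FPKM with valinomycin, 11.2, 29.4 and 26.9 FPKM with DC3000, and 5.265, 13.6 and 4.11 FPKM in mock. All libraries with both treatments lay below the other 9, whereas mock replicate 2 lay above the lowest library of each single treatment. Both treatments averaged 1.76 ± 0.617 FPKM, against 7.66 ± 5.19 FPKM in mock (SD, n = 3 each), and LTP3 fell by 1.52 ± 0.44 on the log2 scale (limma adjusted p = 0.00837). Without mock replicate 2 this became -1.06 and the call was lost (limma adjusted p = 0.0567).

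The single treatments had log2 fold changes of LTP3 of 1.25 ± 0.44 with valinomycin (limma adjusted p = 0.0285) and 1.49 ± 0.44 with DC3000 (limma adjusted p = 0.0123). The valinomycin call was lost without mock replicate 1 (1.09, limma adjusted p = 0.0922), mock replicate 3 (0.95, limma adjusted p = 0.147) or valinomycin replicate 3 (0.78, limma adjusted p = 0.113), and after rescaling (0.97, limma adjusted p = 0.0888). The DC3000 call was lost without mock replicate 3 (1.19, limma adjusted p = 0.078) or DC3000 replicate 2 (1.25, limma adjusted p = 0.0558). The larger differences were between treated groups. With both treatments LTP3 differed by -3.01 ± 0.44 from DC3000 alone (limma adjusted p = 0.000301) and by -2.77 ± 0.44 from valinomycin alone (limma adjusted p = 0.000984), and both calls were kept in all 18 alternatives. Its nearest transcript, that of LTP4, is 77.4% identical over 757 bases, and whether any reads match both was not tested. LTP4 lies on the same chromosome at 23924990 to 23925957, minus strand.

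**Figure D2:**
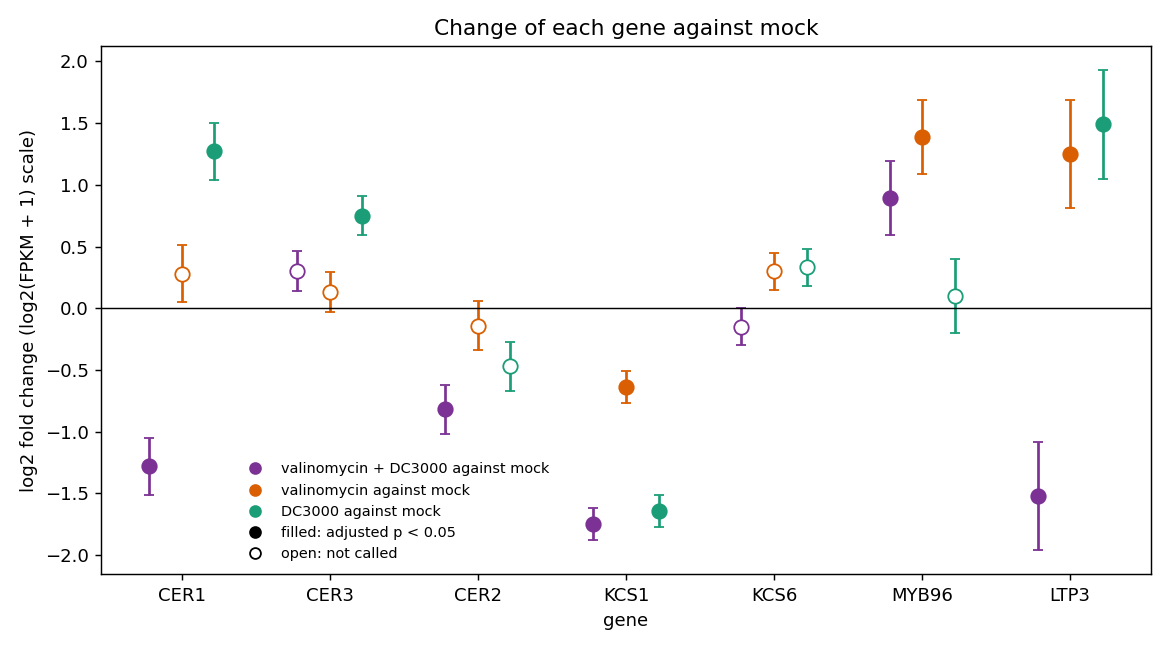
Log2 fold change against mock on the log2(FPKM + 1) scale, with its standard error, for the 7 genes in the 3 treated groups, from 1 fit of 4 group means on 12 libraries; filled points were called at an adjusted p under 0.05. KCS1 lies below 0 in all 3, MYB96 is called above 0 in the groups with valinomycin, and CER1 and LTP3 lie above 0 with DC3000 alone and below 0 with both treatments.

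Counted over the genes, both treatments against mock called 5 of the 7 members, where 60.3% of all tested genes were called. Of these 1 was higher, against 37.2% of all genes, and 4 were lower, against 23.1%. Valinomycin against mock called 3, where the share of all genes was 52.3%, with 2 higher (38.5% of all genes) and 1 lower (13.8%). DC3000 against mock called 4, where the share was 48.8%, with 3 higher (31.6%) and 1 lower (17.2%). The total calls against mock are near the share of all genes, while with both treatments the lower calls stand above their share and the higher calls below it. In both treatments against DC3000, 3 of 7 were called (27.6% of all genes), 0 higher (14.1%) and 3 lower (13.5%). Both treatments against valinomycin called 4 (15.1%), 0 higher (4.72%) and 4 lower (10.4%). In valinomycin against DC3000, 4 were called (26.1%), 2 higher (17.9%) and 2 lower (8.18%). The median log2 change of the 7 against mock was -0.82 with both treatments, 0.28 with valinomycin and 0.33 with DC3000, beside 0.17, 0.27 and 0.18 for all genes.

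Libraries of the groups did not overlap for 6 of the 7 members in both treatments against mock, 2 higher and 4 lower. Over all tested genes the shares without overlap were 65.8%, split into 40.7% higher and 25.1% lower. In valinomycin against mock 3 members did not overlap, 2 higher and 1 lower, beside 55.9% of all genes (41.5% higher and 14.4% lower). The DC3000 libraries were clear of mock also for 3 members, 2 higher and 1 lower, beside 55.9% (36.1% and 19.8%). Both treatments were clear of DC3000 for 5 members, 1 higher and 4 lower, beside 49.9% (23.8% and 26.1%), and clear of valinomycin for 6, 1 higher and 5 lower, beside 37.1% (12.3% and 24.7%). In valinomycin against DC3000 4 members did not overlap, 2 each way, beside 40.6% (26.8% and 13.8%). The comparisons with mock share the mock libraries, so like directions among them are not independent.

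The effect of valinomycin in the presence of DC3000 was then set against its effect without DC3000, as the interaction of the treatments in the same model. It was called for 3 of the 7 genes, all negative, where 24.7% of all tested genes were called, 5.25% positive and 19.4% negative. CER1 had an interaction of -2.84 ± 0.32 on the log2 scale (limma adjusted p = 2.99e-05), its valinomycin effect being -2.56 with DC3000 and 0.28 without. LTP3 had an interaction of -4.26 ± 0.63 (limma adjusted p = 0.000287), made of -3.01 with DC3000 and 1.25 without. KCS6 had a smaller one of -0.78 ± 0.21 (limma adjusted p = 0.0168), which was lost without DC3000 replicate 2 (-0.67, limma adjusted p = 0.0537) and with nuclear genes scaled to 1 total (-0.66, limma adjusted p = 0.0615). After rescaling the KCS6 interaction was -0.44 (limma adjusted p = 0.0478), and over 17 alternatives it ran from -0.93 to -0.44. The interactions of CER1 and LTP3 were kept in all 17 alternatives that could be fitted, and their ranges were -3.10 to -2.52 and -4.91 to -3.79. The median interaction of all genes was -0.29, and 0 after rescaling.

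The other 4 genes had no called interaction. KCS1 stood at 0.54 ± 0.19 (limma adjusted p = 0.0501) and was called in 6 of 17 alternatives, among them rescaling (0.88, limma adjusted p = 0.00138). For CER3 it was -0.58 with an unadjusted 95% interval of -1.07 to -0.08 (limma adjusted p = 0.0824), for CER2 -0.21 with an interval of -0.80 to 0.38, and for MYB96 -0.59 with an interval of -1.50 to 0.31. The last interval does not show that valinomycin acts alike on MYB96 with and without DC3000. With both treatments MYB96 was called above mock and LTP3, its known target, below it.

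**Figure D3:**
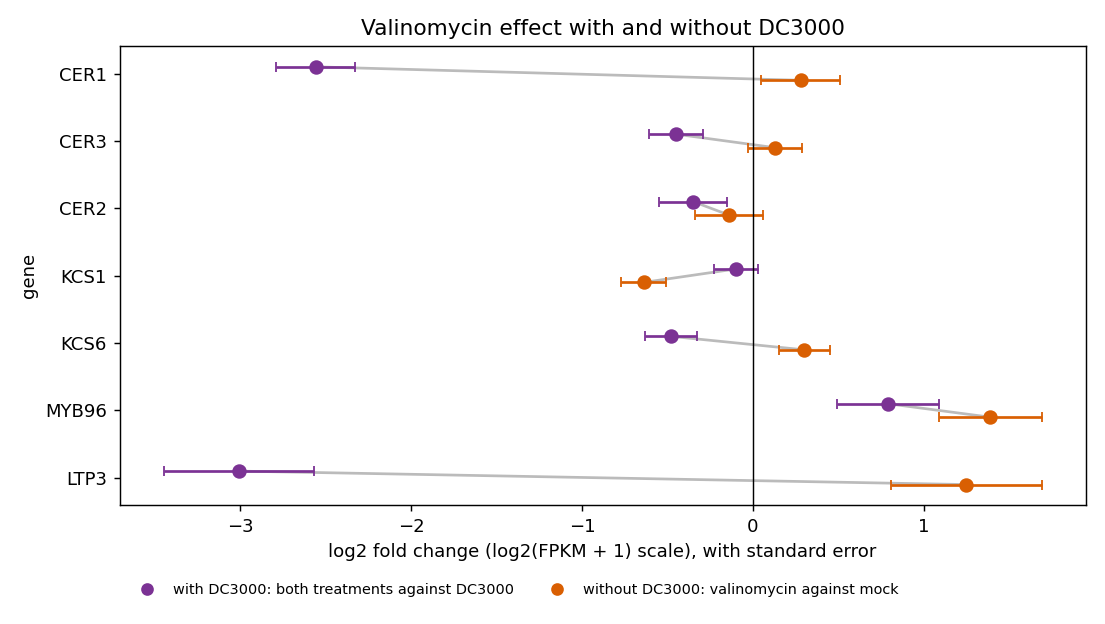
Log2 fold change, with its standard error, of valinomycin with DC3000 (both treatments against DC3000) and without it (valinomycin against mock) for each of the 7 genes; a grey line joins the 2 effects, which share no library. The gap is widest for LTP3, at -3.01 with DC3000 and 1.25 without, and for CER1, at -2.56 with DC3000 and 0.28 without.

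The other genes of the pathway, taken from lists written down by name, are given next, with the members left out of each count. Among enzymes of wax synthesis outside the set, 8 of 11 were tested. With both treatments 5 of these were lower than mock and 0 higher, beside 23.1% and 37.2% of all tested genes. With valinomycin 1 was lower (13.8%), and with DC3000 1 was lower (17.2%). PAS2, the dehydratase of the elongase, fell by 1.17 on the log2 scale with both treatments against mock (limma adjusted p = 7.14e-05) and fell by 1.01 against DC3000 alone (limma adjusted p = 0.00117). CER10, the enoyl-CoA reductase of the same complex, fell by 0.87 against DC3000 alone (limma adjusted p = 0.00591). The median log2 change of the list was -0.74 with both treatments, -0.12 with valinomycin and -0.24 with DC3000, beside 0.17, 0.27 and 0.18 for all genes. After rescaling, and with the members of the set counted in, the lower calls of the list in these comparisons numbered 8, 6 and 7 of 11, in place of 7, 1 and 1. Over all genes the lower calls rose as well, to 5732, 4879 and 4938 of 18051, in place of 4173, 2493 and 3096 of 18048.

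Of the other KCS genes 12 of 19 were tested. With both treatments 9 were lower than mock and 1 higher, beside 23.1% and 37.2% of all tested genes. With valinomycin 5 were lower and 2 higher (13.8% and 38.5%), and with DC3000 6 lower and 1 higher (17.2% and 31.6%). After rescaling, with KCS1 and KCS6 counted in, the lower calls numbered 12, 9 and 9 of 14 in place of 10, 6 and 7, and the higher calls 0, 2 and 1 in place of 1, 2 and 1. Of all 18051 genes tested after rescaling, 5732, 4879 and 4938 were lower and 6005, 4807 and 4695 higher. The KCS gene higher with both treatments as deposited was KCS12, whose 0.66 (limma adjusted p = 0.0387) became 0.49 after rescaling (limma adjusted p = 0.128). KCS9, a condensing enzyme of the same kind as KCS1, averaged 11.3 ± 0.58 FPKM with both treatments, 18.4 ± 2.09 with valinomycin, 9.56 ± 0.687 with DC3000 and 51.0 ± 9.44 in mock (SD, n = 3 each). Its log2 fold changes were -2.06, -1.41 and -2.29 (limma adjusted p = 5.6e-08, 4.22e-06 and 2.54e-08). KCS10, or FIDDLEHEAD, which keeps shoot epidermal surfaces from fusing, fell by 1.63 with DC3000 against mock (limma adjusted p = 3.51e-07). KCS2, which acts in suberin synthesis, stood at 0.556 ± 0.0876 FPKM with both treatments, 1.86 ± 0.514 with valinomycin, 4.60 ± 0.465 with DC3000 and 1.47 ± 0.22 in mock. Its rise with DC3000 was 1.18 (limma adjusted p = 3e-05), and with both treatments it fell by 1.85 against DC3000 alone (limma adjusted p = 4.55e-06). KCS12 rose by 1.54 with valinomycin (limma adjusted p = 0.000204) and KCS8 by 1.08 (limma adjusted p = 3.65e-05).

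Wax export was represented by 4 genes, all tested and none a member. All 4 were lower than mock with both treatments, and 2 were lower with each single treatment, where 23.1%, 13.8% and 17.2% of all tested genes were lower with both, with valinomycin and with DC3000. After rescaling all 4 were lower in each of the 3 comparisons, where 5732, 4879 and 4938 of all 18051 genes were lower. LTPG1, a lipid transfer protein anchored to the plasma membrane and needed for wax export, stood at 49.4, 60.4 and 48.2 FPKM with both treatments, 133, 118.6 and 136 FPKM with valinomycin, 76.1, 87.2 and 97.5 FPKM with DC3000, and 290.1, 268.5 and 258 FPKM in mock. No 2 groups overlapped, and the log2 fold changes against mock were -2.35, -1.07 and -1.64 (limma adjusted p = 5.4e-09, 1.98e-05 and 2.37e-07). Its relative LTPG2 had log2 fold changes of -1.88, -1.0 and -1.54 (limma adjusted p = 2.27e-07, 0.000139 and 2.2e-06).

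Among regulators other than MYB96, 8 of 12 were tested. With both treatments 4 were higher than mock and 2 lower, beside 37.2% and 23.1% of all tested genes. With valinomycin 4 were higher and 1 lower (38.5% and 13.8%), and with DC3000 0 higher and 1 lower (31.6% and 17.2%). DEWAX, a repressor of wax synthesis in the dark, averaged 80.8 ± 4.63 FPKM with both treatments, 136 ± 21.3 with valinomycin, 39.9 ± 8.67 with DC3000 and 38.4 ± 13.4 in mock (SD, n = 3 each). It rose by 1.12 with both treatments (limma adjusted p = 0.000915) and by 1.85 with valinomycin (limma adjusted p = 2e-05). MYB30, an activator of very long chain fatty acid synthesis in defence, rose by 1.30 with valinomycin (limma adjusted p = 0.000191), and WRI4, an activator of wax synthesis in stems, by 1.00 with both treatments (limma adjusted p = 1.55e-05). MYB16, which promotes cuticle formation, fell by 0.79 with both treatments (limma adjusted p = 0.00476) and by 0.56 with DC3000 (limma adjusted p = 0.0384), a call lost in 6 of 18 alternatives, all but 1 of them leaving out 1 library of mock or DC3000.

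In the lipid transfer family outside LTP3 and LTP4, 9 of 10 were tested. With both treatments 3 were higher than mock and 3 lower, beside 37.2% and 23.1% of all tested genes. With valinomycin 6 were higher and 2 lower (38.5% and 13.8%), and with DC3000 also 6 higher and 2 lower (31.6% and 17.2%). AZI1, which takes part in systemic acquired resistance, stood at 217, 194 and 177.5 FPKM with both treatments, 344, 437 and 244 FPKM with valinomycin, 66.3, 89.5 and 64.6 FPKM with DC3000, and 5.51, 3.835 and 4.78 FPKM in mock. The groups did not overlap, and it rose by 5.12, 5.88 and 3.70 on the log2 scale (limma adjusted p = 1.44e-10, 6.41e-11 and 3.54e-09). LTP6 moved the other way, at 2.36 ± 0.894 FPKM with both treatments, 6.99 ± 3.32 with valinomycin, 13.2 ± 0.938 with DC3000 and 50.3 ± 6.27 in mock (SD, n = 3 each), with log2 fold changes of -3.96, -2.75 and -1.84 (limma adjusted p = 1.2e-08, 8.18e-07 and 3e-05). LTP2 averaged 97.5 ± 21.2 FPKM with both treatments and 364 ± 63.8 with DC3000, a log2 fold change of -1.90 (limma adjusted p = 4.9e-05). With LTP3 counted in, 7 of 10 were higher and 2 lower with valinomycin as deposited, against 4 higher and 3 lower after rescaling. Over all genes valinomycin then gave 4807 higher and 4879 lower of 18051, in place of 6943 and 2493 of 18048. The interaction was called negative for 7 of these 9 and positive for 0, with a median of -1.03 beside -0.29 for all genes, of which 19.4% were called negative. After rescaling 2187 of all 18051 genes were called negative and 2489 positive. With LTP3 counted in, 8 of 10 of the family were negative and 0 positive as deposited, against 7 negative and 1 positive after rescaling. The interaction of LTP1 was among those lost on rescaling, at -0.26 (limma adjusted p = 0.287), against -0.60 as deposited. It was also lost with no filter and with nuclear genes scaled to 1 total (limma adjusted p = 0.0517 and 0.126). Several fits without 1 library lost it too, among them those without any 1 library with both treatments (limma adjusted p = 0.0665 to 0.097). A negative interaction did not need a low level with both treatments: AZI1 had one of -4.46 (limma adjusted p = 1.37e-07) while it stood above mock there.

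Cutin, the polyester that holds the wax, was represented by 14 genes, of which 12 were tested. With both treatments 10 were lower than mock and 0 higher, with valinomycin 5 lower and 0 higher, and with DC3000 10 lower and 0 higher, beside 23.1%, 13.8% and 17.2% of all tested genes lower. After rescaling 12, 9 and 11 of the 12 were lower and 0 higher, where 5732, 4879 and 4938 of all 18051 genes were lower. The gap between valinomycin and DC3000 in the cutin counts thus depends on the scaling. DCR, an acyltransferase of cutin synthesis, averaged 3.54 ± 0.375 FPKM with both treatments, 5.06 ± 2.25 with valinomycin, 7.04 ± 1.46 with DC3000 and 31.0 ± 4.41 in mock (SD, n = 3 each), with log2 fold changes of -2.81, -2.45 and -2.0 (limma adjusted p = 1.11e-07, 8.39e-07 and 4.54e-06). HTH, an oxidoreductase of the same pathway, had log2 fold changes of -2.61, -1.70 and -1.51 (limma adjusted p = 1.41e-07, 1.62e-05 and 4.18e-05).

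Markers of the epidermis were read beside these genes. All 5 of the list have values. Their summed level was 69.9 to 86.5 FPKM with both treatments, 135 to 171 with valinomycin, 98.4 to 135 with DC3000 and 197 to 320 in mock. That sum turns on PDF1: the other 4 markers summed to 36.6 to 40.9 FPKM with both treatments, 47.2 to 52.0 with valinomycin, 29.4 to 31.1 with DC3000 and 38.4 to 61.0 in mock. Without PDF1, the libraries with both treatments or with valinomycin alone overlapped mock only through its lowest library, at 38.4 FPKM, the mock median being 54.2 FPKM. Those with DC3000 alone lay below all of mock. These sums are on the deposited scale and were not taken after rescaling. PDF1, a gene of the outermost cell layer, was the highest of the 5 in every group, with log2 fold changes of -2.35, -1.08 and -1.31 (limma adjusted p = 3.22e-07, 0.000626 and 0.000123). ATML1, a homeodomain factor that sets epidermal identity, was at 16.8 ± 0.819 FPKM with both treatments, 22.5 ± 2.22 with valinomycin, 10.4 ± 0.574 with DC3000 and 22.5 ± 6.21 in mock (SD, n = 3 each), and fell by 1.01 with DC3000 (limma adjusted p = 0.000295). GL2, an epidermal factor, had log2 fold changes of 0.42 with both treatments and 0.37 with valinomycin (limma adjusted p = 0.0147 and 0.0321), which after rescaling were 0.26 and 0.10 and no longer called (limma adjusted p = 0.116 and 0.549). In counts, 1 marker was higher and 3 lower with both treatments, beside 37.2% and 23.1% of all tested genes. With valinomycin 1 was higher and 1 lower (38.5% and 13.8%), and with DC3000 0 higher and 3 lower (31.6% and 17.2%). After rescaling 0 were higher in any of the 3 comparisons, and 4, 3 and 4 were lower. Of all 18051 genes, 5732, 4879 and 4938 were then lower and 6005, 4807 and 4695 higher. The 4 mesophyll markers, of which 4 were lower with both treatments and 3 with each single treatment, summed to between 5150 and 6060 FPKM with both treatments, 7770 and 9490 with valinomycin, 8050 and 9630 with DC3000, and 16100 and 17000 in mock. Their part in the levels of the wax genes was not tested.

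**Figure D4:**
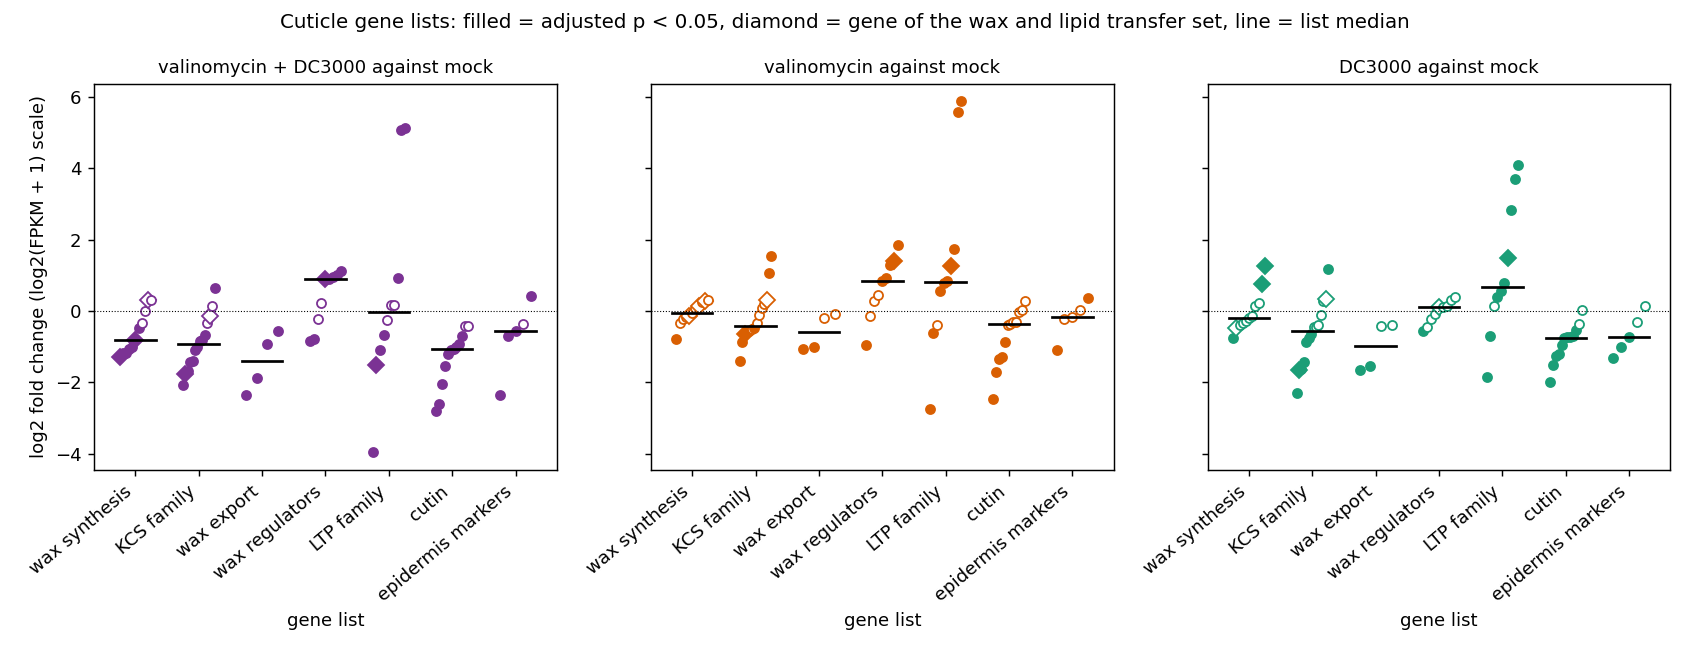
Log2 fold change against mock on the log2(FPKM + 1) scale of every tested gene of the cuticle lists and of the epidermis markers, in 3 panels for the 3 treated groups; filled points were called at an adjusted p under 0.05, diamonds are genes of the set and lines are list medians, which here include those genes. With both treatments no cutin gene was called higher and 10 were called lower, while AZI1 and EARLI1, a related gene, lie above 5 in the lipid transfer family.

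Genes with the pattern most like each strongly varying member were sought over the 12 libraries by the root mean square difference of centred log2 values. For CER1 they were EXPA16, a wall-loosening expansin, at 0.318, KCS2 at 0.343 and AT1G04247 at 0.474. EXPA16 averaged 3.34 FPKM with both treatments, 7.73 with valinomycin, 22.2 with DC3000 and 10.4 in mock. For KCS1 they were AT5G41900 at 0.125, AT1G70250 at 0.136 and CDF3, a DOF transcription factor, at 0.147. AT5G41900 and AT1G70250 are low, at 4.51 and 5.01 FPKM in mock and 0.919 and 0.897 FPKM with DC3000 alone, against 61.3 and 18.4 for CDF3. For MYB96 they were AT1G68330, AT1G09623 and AT1G28280, at 0.198 to 0.219. For LTP3 the nearest were further off: BGLU21, a beta-glucosidase, at 0.743, AT4G12545 at 0.799 and DAA1 at 0.816. The difference includes the spread between libraries of a group, which was wide for LTP3, at 11.1 to 34.2 FPKM with valinomycin. A larger distance is therefore not a sign of an unusual pattern of group means. These differences are descriptions of 4 groups of 3 libraries, with no test. They are on the log2(FPKM + 1) scale, where changes of low genes are understated, so a low gene can lie near a member while its FPKM ratios differ.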

How the data were processed

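RNA was measured in 12 libraries, from the CORALL kit for total RNA (Lexogen) per the labels' protocols. The authors deposited 1 normalized value per gene and library, with no unit stated. FPKM was inferred from the deposited values, which are not whole, never 0, and sum to 1057472 to 1350272. Per the submitters' processing notes, TAIR10 was the build. The sources used here do not give the aligner, quantifier, annotation or strand setting, nor how reads with several matches were counted.

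From these, log2(FPKM + 1) was fitted in limma 3.58.1 under R 4.3.3, as 4 group means with 8 residual degrees of freedom and a trend of the spread with level. The 18048 genes averaging 1 FPKM or more entered, and calls used a Benjamini-Hochberg adjusted p under 0.05 over all of them. Changes of low genes are understated on this scale. The code of the fit was run on simulated data with independent noise and changes in few genes of the valinomycin group. That run does not test the scaling, nor a setting where as many genes change as here. No 2 libraries held identical values.

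The members and lists were chosen with earlier results of these data known. The lists hold wax synthesis, KCS, export, regulator, lipid transfer, cutin and suberin genes and markers of epidermis, guard cells, roots and mesophyll. Named genes are the members, up to 2 called rises and 2 called falls per list and comparison, of which a part is named, and the 3 nearest in pattern. LHY was named after its values were seen, as were the interactions of genes outside the set. Names and coordinates are from RefSeq TAIR10.1, where 20054 of 20233 loci were found on chromosomes. Nearest transcripts came from blastn 2.17.0. Alternatives were another pseudocount (0.1), no filter, 2 other scalings, a replicate block, only the compared groups, and leaving out each library.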

Additional observations from a re-analysis of the deposited data

Results flagged for a closer look

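For 3 genes the effect of valinomycin differed between seedlings with DC3000 and without it, by a test of that difference in the same model. The second effect subtracted from the first was -2.84 for CER1, -4.26 for LTP3 and -0.78 for KCS6 on the log2 scale (limma adjusted p = 2.99e-05, 0.000287 and 0.0168). The KCS6 value was -0.44 after rescaling (limma adjusted p = 0.0478), and its call was lost with nuclear genes scaled to 1 total (limma adjusted p = 0.0615) and without DC3000 replicate 2 (limma adjusted p = 0.0537). For CER1, LTP3 and KCS6 all libraries with both treatments lay below all with DC3000 alone, as for 26.1% of all tested genes. These values also enter the interaction, so they are not separate support for it. Interactions were called for 24.7% of all tested genes.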

How the results depend on the processing

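After median-of-ratios rescaling, valinomycin against mock gave 1 higher and 2 lower in place of 2 and 1. DC3000 against mock gave 2 lower in place of 1 after that rescaling, with nuclear genes scaled to 1 total and with the replicate block. Both treatments against DC3000 gave 1 higher in place of 0 under these 3 settings and with only the compared groups. The interaction gave 1 positive in place of 0 under the 3 settings and with no filter. Leaving out each library in turn gave, as higher and lower, 1 to 2 and 1 to 1 for valinomycin against mock, 2 to 4 and 1 to 2 for DC3000 against mock, and 0 to 1 and 3 to 4 for both against mock. It gave 0 to 1 and 2 to 4 for both against DC3000, 0 to 0 and 3 to 5 for both against valinomycin, 2 to 2 and 1 to 2 for valinomycin against DC3000, and 0 to 1 and 2 to 4 for the interaction. Over all genes, median-of-ratios rescaling gave 4807 higher and 4879 lower for valinomycin against mock, in place of 6943 and 2493. For DC3000 against mock it gave 4938 lower in place of 3096. For both against DC3000 it gave 3374 higher in place of 2551, and for the interaction 2489 positive in place of 947. No called log2 change of a member changed sign. Of 104 called results on other named genes, 14 lost the call in at least 1 alternative, 8 of these on rescaling, and 0 reversed. The cause was not tested.

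The labels give each group replicates 1 to 3. Deviations of same-numbered libraries correlated at -0.24 to 0.44, over 0.1 in 3 of 18 pairs. Those of differently numbered libraries correlated at -0.49 to 0.49, over 0.1 in 8 of 36 pairs. Of 12 libraries, 0 correlated best with its own number in every other group. Over all genes these values showed no clear pairing, but they cannot exclude it for single genes. MYB96 was lowest in replicate 3 of every group. The replicate block gave 9704 calls for valinomycin, 9115 for DC3000 and 11078 for both against mock, against 9436, 8803 and 10884 without it. Among members it added CER2 in DC3000 against mock, CER3 and MYB96 in both against DC3000, KCS6 in both against valinomycin and KCS1 in the interaction. Over all genes, calls for both against DC3000 numbered 4987, and 3276, 3323 and 2914 without DC3000 replicate 1, DC3000 replicate 2 and replicate 2 of both treatments. For both against valinomycin they numbered 2720, and 1807, 1596, 1769 and 1691 without valinomycin replicate 2 and replicates 1, 2 and 3 of both treatments. Depth is unknown, so no counting limit can be given for LTP3, the lowest member.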

Other observations

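Suberin, the root and wound counterpart of cutin, has 7 genes in its list, of which 2 were tested. FAR1, a fatty acyl reductase related to CER4, stood at 12.4 ± 2.74 FPKM with both treatments, 21.2 ± 5.14 with valinomycin, 23.6 ± 4.46 with DC3000 and 13.1 ± 1.79 in mock (SD, n = 3 each). It rose with each single treatment, by 0.64 with valinomycin and 0.79 with DC3000 (limma adjusted p = 0.0167 and 0.00481), and with both treatments it fell by 0.87 against DC3000 alone (limma adjusted p = 0.00603). After rescaling the valinomycin value was 0.34 and not called (limma adjusted p = 0.13). Of the 5 root markers 1 was tested, PYK10, a beta-glucosidase of root endoplasmic reticulum bodies, higher by 0.51 with DC3000 (limma adjusted p = 0.0471), which after rescaling was 0.29 and not called (limma adjusted p = 0.148). Of the 5 guard cell markers 4 were tested. With both treatments 2 of these were higher than mock and 0 lower, beside 37.2% and 23.1% of all tested genes. With valinomycin 2 were also higher and 0 lower (38.5% and 13.8%). After rescaling 2 were higher and 2 lower with both treatments, and 1 higher and 1 lower with valinomycin. Of all 18051 genes, 6005 were then higher and 5732 lower with both treatments, and 4807 higher and 4879 lower with valinomycin. The valinomycin call of FAMA, a regulator of guard cell fate, was lost after rescaling (0.09, limma adjusted p = 0.458) and in 10 other alternatives. GORK, the outward potassium channel of guard cells, rose by 1.54 with both treatments and 1.78 with valinomycin (limma adjusted p = 0.000458 and 0.000205). KAT1, another of these markers, fell by 1.16 with both treatments against DC3000 alone (limma adjusted p = 0.00489). KAT1 averaged 2.76 FPKM with both treatments and 4.94 in mock, and MYB60, also a marker, 7.67 and 9.74. Neither was called against mock as deposited.

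Within the KCS family the interaction ran both ways. It was negative for KCS2, KCS8 and KCS6, at -2.05, -1.22 and -0.78 (limma adjusted p = 2.43e-05, 0.000943 and 0.0168). It was positive for 3 genes, among them KCS9 and KCS10, at 1.63 and 0.71 (limma adjusted p = 0.000114 and 0.0199). The KCS10 value was lost without mock replicate 1, DC3000 replicate 1 or replicate 3 of both treatments (limma adjusted p = 0.0521 to 0.055). With KCS1 and KCS6 counted in, rescaling gave 5 positive and 3 negative of 14, in place of 3 and 3. Over all genes it gave 2489 positive and 2187 negative of 18051, in place of 947 (5.25%) and 3502 (19.4%) of 18048. KCS9 and KCS10 were already below mock with each single treatment.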
